A study of Mus musculus with 8 samples.

Results

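The genes described here encode the transition zone, the basal body and the membrane traffic of the primary cilium. The 34 members were named by gene symbol, by a rule that uses no measured value, although earlier results of these data were known when the list was made. Of these, 33 were measured among 31053 gene identifiers, and Tctn2 was not analysed here. All 33 passed the filter of at least 1 CPM (counts per gene scaled to the size of the library) in at least 4 libraries, as did 13813 genes in all.

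The libraries came from eyecups holding the retinal pigment epithelium (RPE), the pigmented cell layer behind the photoreceptors, of C57/Bl6 mice at postnatal day 11 (P11). There were 4 libraries from wild-type littermates (Bbs8+/+) and 4 from constitutive knockouts (Bbs8-/-), with no treatment in either group. Bbs8, listed in the annotation as Ttc8, encodes a subunit of the BBSome, a complex that carries membrane proteins in and out of cilia. The deletion was carried in the germ line, and every cell type in the eyecup was therefore mutant.

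A primary cilium grows from a basal body, which is a mother centriole docked at the plasma membrane. At the base of the cilium lies the transition zone, in which the MKS/B9 and NPHP protein modules link the microtubules to the membrane and control which proteins enter. In photoreceptors the connecting cilium corresponds to this zone, and mutations of many of these genes cause retinal dystrophy together with kidney, brain or skeletal disease. In the RPE, primary cilia are frequent during development and become rarer as the tissue matures. The comparison of Bbs8-/- with Bbs8+/+ asks how transcripts of these partners of the BBSome stood when the BBSome lacked one subunit.

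Expression was read by QuantSeq, which sequences the 3′ end of polyadenylated RNA, so that a transcript gives one tag whatever its length. Total gene counts lay between 1636725 and 2884983 per library, and 3 counts corresponded to 1.04 to 1.83 CPM on the raw totals, before the TMM scaling used for all other CPM values. Ttc8 was lower in every Bbs8-/- library (2.29 to 9.70 CPM) than in any Bbs8+/+ library (14.6 to 21.6 CPM), with a log2 fold change of -1.95. RPE markers were abundant, with Ttr at 10937 ± 513 CPM and Rpe65 at 1998 ± 98.4 CPM in Bbs8+/+ (SD, n = 4). Best1, another RPE marker, had at most 10 counts. Photoreceptor, muscle, lens, vessel and blood transcripts were present in all libraries, and the summed level of 9 fibroblast and matrix markers (35936 CPM in Bbs8+/+) exceeded that of 13 RPE markers (18688 CPM).

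Some ciliary genes carry an X-box, the palindromic site of RFX transcription factors, near their start. A search for GTTNCC followed by 1 to 3 bases and GNAAC, on both strands, was made from 250 bases before to 50 bases after the annotated starts (RefSeq, GRCm38.p6). Of 31 members with a promoter entry, 6 (19.4%) held a match, against 527 of 27025 genes (1.95%) and 1 of 50 other ciliary genes (2.0%) from the list described further on. The 6 are shown to let the matched letters be compared between members. Capitals mark the match and lower case its flanks, read 5′ to 3′ on the strand of the gene.
Mks1 (chr11:87853183-87853212, plus strand): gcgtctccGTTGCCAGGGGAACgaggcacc
B9d2 (chr7:25680788-25680817, plus strand): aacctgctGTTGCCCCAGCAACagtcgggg
Tctn1 (chr5:122264411-122264432, minus strand): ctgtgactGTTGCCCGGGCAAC
Tctn3 (chr19:40612351-40612379, minus strand): tcccagcgGTTGCCAGGTAACgggaacca
Ahi1 (chr10:20952560-20952589, plus strand): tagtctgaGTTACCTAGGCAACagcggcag
Rab3ip (chr10:116950615-116950644, minus strand): ccagagtgGTTCCCAGGGAAACcgctgtag
These are letter matches and not measured binding sites. Of the 6 members, 5 belong to the MKS/B9 group and Rab3ip to the Rab8 group.

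No member passed FDR 0.05 (edgeR quasi-likelihood test, adjusted over all tested genes), in either direction. Among all tested genes 309 passed, or 2.24% (1.10% higher and 1.14% lower in Bbs8-/-). DESeq2 and the edgeR likelihood ratio test also called 0 members, with 3 and 4 at an unadjusted p under 0.05. The lowest FDR of any member in any setting was 0.0785, for Tmem67 without Bbs8+/+ replicate 3. At an unadjusted p under 0.05 there were 4 members, or 12.1%, against 13.0% of all tested genes. These were Tmem67, Cep290 and Invs, with lower values in Bbs8-/-, and Rpgr, with higher values, beside 6.60% of all tested genes lower and 6.38% higher by the same rule. The point values were lower for 18 members and higher for 15, which is 54.5% lower, against 50.5% of all genes. The median log2 fold change was -0.07 over the members and -0.004 over all tested genes, and the median absolute value was 0.20 and 0.19. The summed level of the members overlapped between genotypes, at 905 to 969 CPM in Bbs8+/+ and 874 to 935 CPM in Bbs8-/-.

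**Figure D1:**
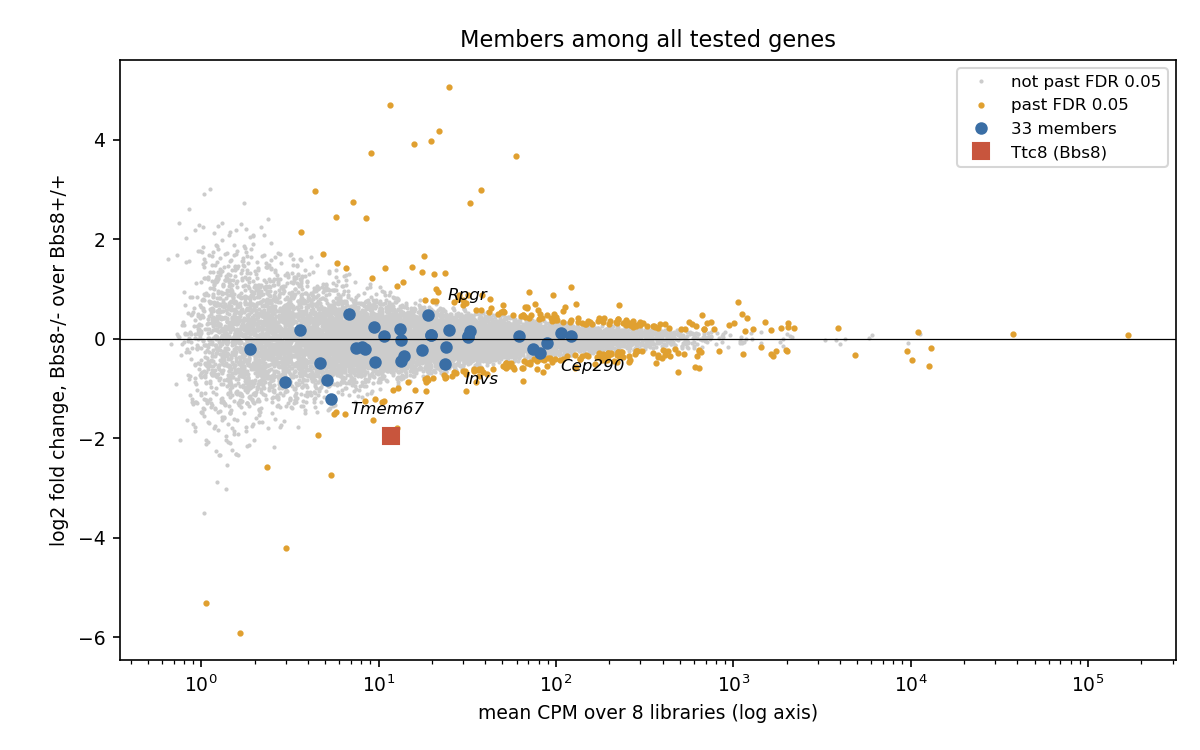
Log2 fold change (Bbs8-/- over Bbs8+/+) against mean CPM over 8 libraries on a log axis, for all 13813 tested genes. The 33 members (blue) lie within the cloud of genes not past FDR 0.05 (grey), the 309 genes past it are orange, and Ttc8 (red square) sits at -1.95.

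How far these data limit a change differed between members and followed their abundance. The mean level was under 10 CPM for 12 members, between 10 and 50 CPM for 15, and at or above 50 CPM for 6. The median width of the 95% interval of the log2 fold change was 1.68, 0.88 and 0.45 in these classes. For 25 members the interval lay within a 2-fold change in either direction, and for 14 within a 1.5-fold change. For the other 8, a halving was inside the interval for Tmem67, Tctn3, Tmem107, Nphp4, Anks6 and Inpp5e, and a doubling for Tmem138, Tmem216 and Nphp4. For 7 of these 8 the interval also included no change, the exception being Tmem67.

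**Figure D2:**
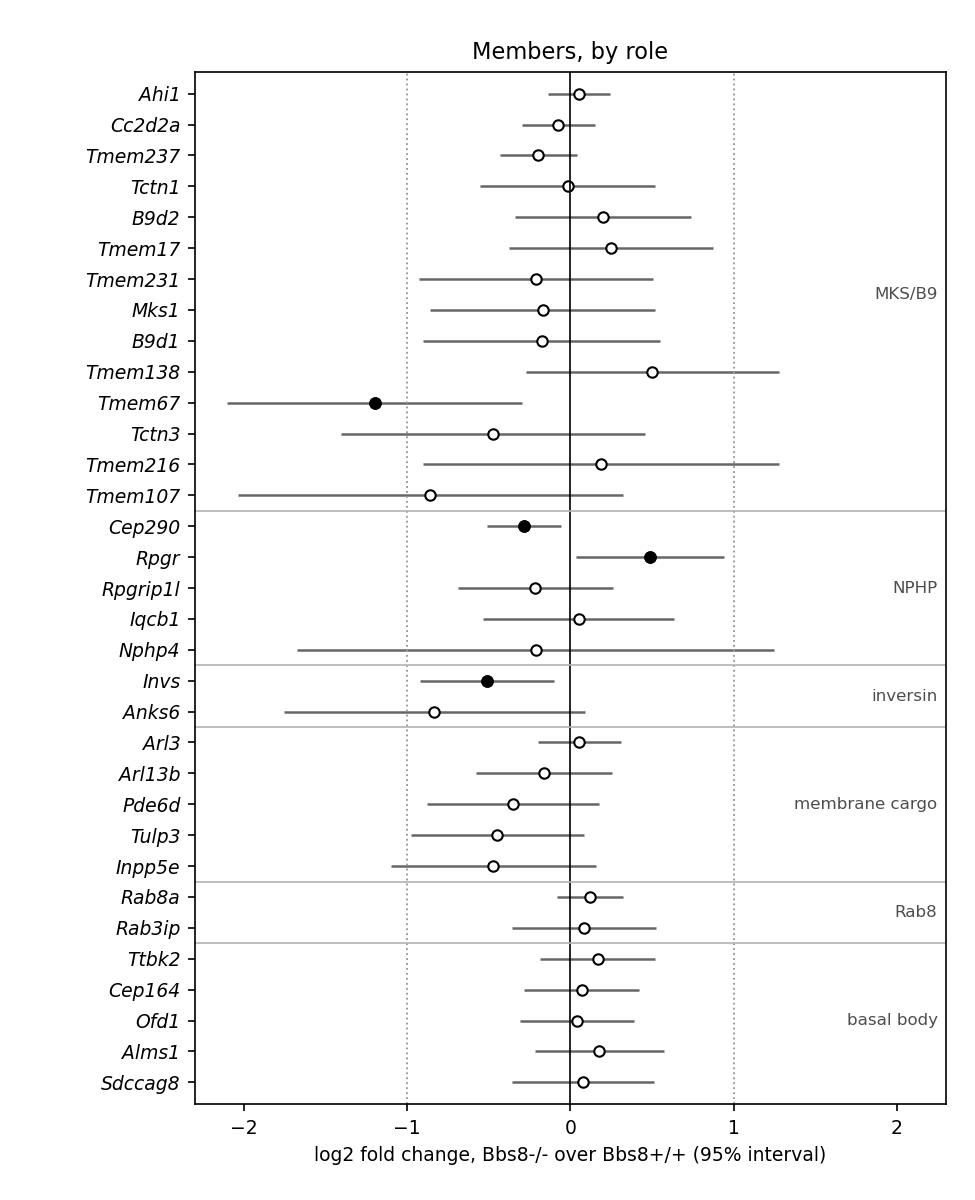
Log2 fold change (Bbs8-/- over Bbs8+/+) of the 33 members with 95% intervals from the edgeR quasi-likelihood fit, grouped by role and ordered by abundance within a role. Filled circles mark the 4 members with an unadjusted p under 0.05, and dotted lines mark a 2-fold change. Intervals widen toward the less abundant members, and those of the 5 basal body genes all stay inside the dotted lines.

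The MKS/B9 complex was the largest group, with 14 measured members, of which 9 had lower and 5 had higher point values (median log2 fold change -0.12). Its membrane and membrane-associated proteins form the barrier at the ciliary base. Ahi1 encodes jouberin, a scaffold of this zone, and was the most abundant member. The Bbs8+/+ libraries held 125, 115, 106 and 131 CPM of it, and the Bbs8-/- libraries 118, 119, 125 and 135 CPM. The genotypes overlapped, with 1 Bbs8-/- library above and 2 Bbs8+/+ libraries below the range of the other genotype, and the 95% interval of the log2 fold change ran from -0.13 to 0.24. Cc2d2a, which encodes a C2 domain protein of the complex, was at 97.8, 78.2, 103 and 86.9 CPM in Bbs8+/+ and at 97.0, 72.6, 100 and 77.0 CPM in Bbs8-/-. In both genotypes libraries 1 and 3 were the higher ones, and the genotype means differed by less than the spread (log2 fold change -0.07, interval -0.30 to 0.15). Tmem237, a transmembrane protein of the zone, was at 77.1, 74.3, 77.0 and 87.6 CPM in Bbs8+/+ and at 71.0, 65.3, 62.4 and 78.0 CPM in Bbs8-/-. Only 1 Bbs8-/- library reached the Bbs8+/+ range, and the log2 fold change was -0.20 with FDR 0.512.

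Tmem67 encodes meckelin, a receptor-like membrane protein whose loss causes Meckel and Joubert syndromes. The gene spans 12039355 to 12090020 of chromosome 4 (mm10). It was measured at 9.05, 7.86, 3.27 and 9.42 CPM in Bbs8+/+ and 4.85, 5.22, 0.917 and 2.33 CPM in Bbs8-/-. The Bbs8+/+ library 3 lay inside the Bbs8-/- range, and the other 3 were above it. The log2 fold change of -1.20 was the largest of any member, with a standard error of 0.457, an interval from -2.10 to -0.29 and FDR 0.186. It rested on 2 to 27 counts per library. The value was -0.87 without Bbs8-/- replicate 3 (unadjusted p = 0.0667 by the edgeR test, FDR 0.478) and -1.52 without Bbs8-/- replicate 2 (FDR 0.128). Without Bbs8+/+ replicate 3 it was -1.43, with an edgeR FDR of 0.0785. Exons of Rbm12b2, which had 2.00 ± 1.39 CPM in Bbs8+/+ (SD, n = 4), overlap Tmem67 on the opposite strand. No exon of another gene was annotated in the stretch at the 3′ end of Tmem67, where QuantSeq tags fall. The sources used here do not say whether counting used strand. Without strand, reads in the overlap would be ambiguous and left out.

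The remaining members of this complex had mean levels between 2.98 and 13.4 CPM. The B9 domain genes Mks1, B9d1 and B9d2 had log2 fold changes of -0.17, -0.18 and 0.20. The tectonic genes Tctn1 and Tctn3, whose products sit at the zone's membrane, had -0.02 and -0.48. The transmembrane genes Tmem17, Tmem107, Tmem138, Tmem216 and Tmem231 had 0.25, -0.86, 0.50, 0.19 and -0.21. In all of these the genotypes overlapped and the FDR was at least 0.588. Single libraries set several of these values. The log2 fold change of Tctn3 was -0.15 without Bbs8+/+ replicate 1 and -0.92 without Bbs8-/- replicate 4. Tmem231 was at 19.4 CPM in Bbs8+/+ replicate 1 and at 3.93 to 7.005 CPM in the other 3, and its log2 fold change turned from -0.21 to 0.49 without that library. Tmem138 was at 11.7 CPM in Bbs8+/+ replicate 3 and at 3.15 to 4.74 CPM in the others, and its value moved to 1.07 without it (FDR 0.247). Tmem138 and Tmem216 are neighbours on the minus strand of chromosome 19. In Bbs8+/+ replicate 3, where Tmem138 was highest, Tmem216 had its lowest Bbs8+/+ level, 1.87 CPM, from 4 counts. Bbs8-/- replicates 2 and 4 also had 4 counts of Tmem216, with Tmem138 at 8.35 and 8.40 CPM.

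**Figure D3:**
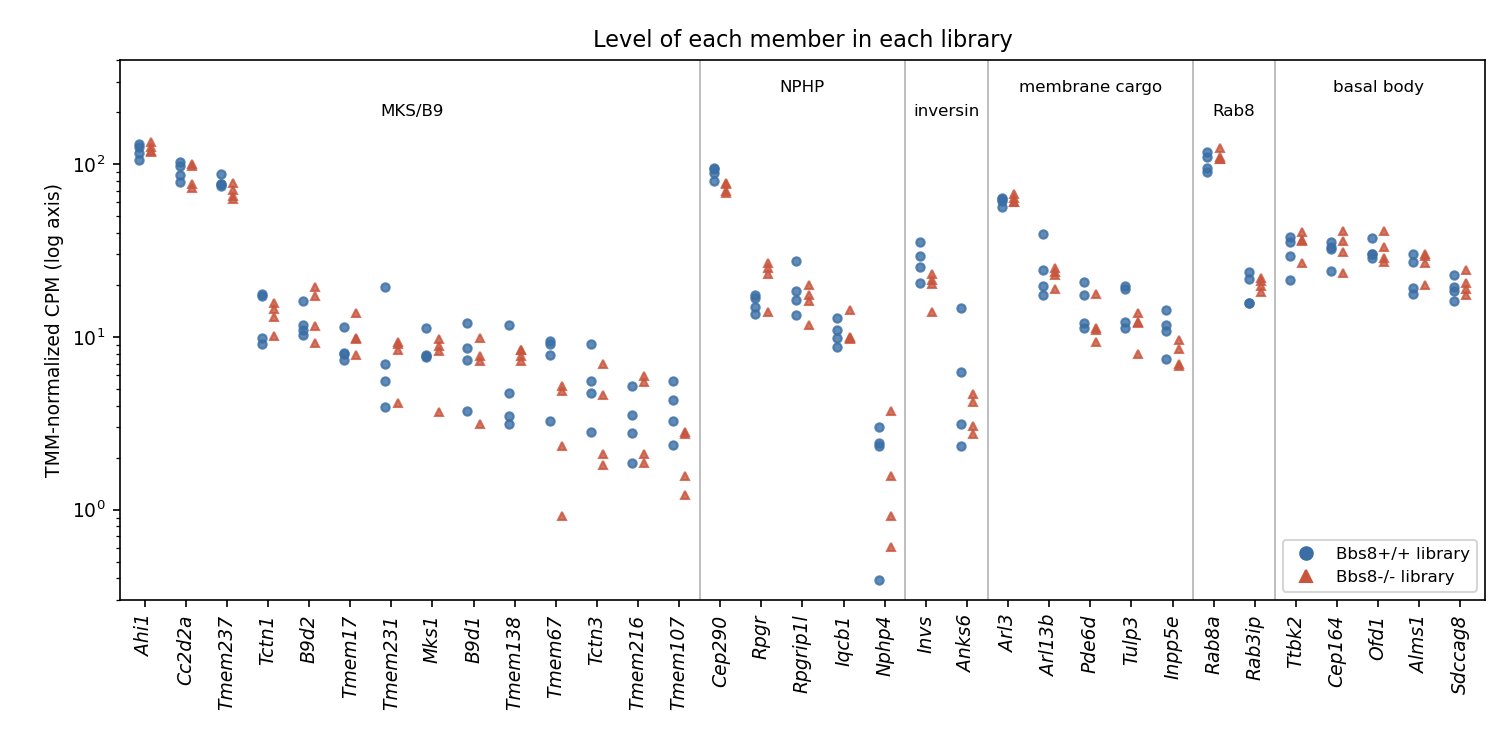
TMM-normalized CPM of the 33 measured members on a log axis, one point per library (circles Bbs8+/+, triangles Bbs8-/-), grouped by role and ordered by mean level. Mean levels over 8 libraries run from 1.88 CPM for Nphp4 to 122 CPM for Ahi1, and the points of the genotypes overlap for all members except Cep290.

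The NPHP module and its scaffold held the 1 member whose genotypes did not overlap. Non-overlap was found for 7.38% of all tested genes (3.76% with the knockout lower) and for 3.03% of the members. Cep290 encodes a large coiled-coil protein that bridges the microtubules and the membrane, and its mutation is a frequent cause of Leber congenital amaurosis. The gene spans 100487558 to 100574840 of chromosome 10. It was measured at 89.2, 79.4, 93.4 and 94.2 CPM in Bbs8+/+ and 77.0, 70.0, 77.5 and 68.2 CPM in Bbs8-/-. Every Bbs8-/- library lay below every Bbs8+/+ library, by a small margin between the nearest ones. The log2 fold change of -0.28 had a standard error of 0.114 and an interval from -0.51 to -0.06, but FDR 0.223 did not pass the threshold. Leaving out each library in turn gave -0.33 to -0.25, with FDR from 0.196 to 0.442. On the opposite strand, exons of 4930430F08Rik overlap Cep290, and this gene had 12.2 ± 3.54 CPM against 7.58 ± 1.49 CPM in the knockout (SD, n = 4 each, log2 fold change -0.66, edgeR FDR 0.351).

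Rpgr, an X-linked gene whose mutation causes retinitis pigmentosa, encodes a regulator of small GTPases at the connecting cilium. Its level was 16.8, 14.9, 13.5 and 17.5 CPM in Bbs8+/+ and 23.0, 25.1, 26.6 and 14.01 CPM in Bbs8-/-. The Bbs8-/- libraries 1 to 3 were above all Bbs8+/+ libraries, and library 4 was among them. The log2 fold change of 0.49 had a standard error of 0.229, an interval from 0.04 to 0.94 and FDR 0.335, and it was 0.66 without Bbs8-/- replicate 4 (FDR 0.181). Rpgr shares annotated exon sequence with Srpx on the same strand. Srpx had 12.8 ± 1.23 CPM against 9.63 ± 2.46 CPM in the knockout (SD, n = 4 each). Srpx exons also lie at the 3′ end of Rpgr, where QuantSeq tags fall. Ambiguous reads were left out, so reads of Rpgr in the shared sequence may be missing from its count. The genotypes also differed in sex-linked transcripts, with Xist at 640 to 746 CPM and 570 to 625 CPM and the summed Y-linked level at 59.0 to 64.9 CPM and 108 to 120 CPM in Bbs8+/+ and Bbs8-/-. The part of this difference in the value for Rpgr was not tested.

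The other members of the module had lower point values or values near 0. Rpgrip1l, which anchors the NPHP proteins, had a log2 fold change of -0.21 (interval -0.69 to 0.26) at 17.6 CPM. Iqcb1, whose product binds CEP290, had 0.05 (interval -0.53 to 0.64) at 10.8 CPM. Nphp4 was the least abundant member, with 1 to 8 counts per library, and the change in it was not measurable at this depth (interval -1.67 to 1.25).

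The inversin compartment lies just above the transition zone and was represented by Invs and Anks6. Invs encodes inversin, which anchors the compartment and is needed for left-right asymmetry. Its level was 25.4, 35.4, 20.5 and 29.3 CPM in Bbs8+/+ and 21.2, 23.0, 20.2 and 14.01 CPM in Bbs8-/-. Replicate 3 of Bbs8+/+ lay inside the Bbs8-/- range, and the other 3 lay above it. The log2 fold change of -0.51 had a standard error of 0.207, an interval from -0.92 to -0.10 and FDR 0.223. With one library left out it ranged from -0.62 to -0.37 with FDR from 0.114 to 0.552. Exons of Tex10 overlap Invs on the opposite strand. Tex10 had 17.6 ± 2.99 CPM against 16.4 ± 5.91 CPM in the knockout (SD, n = 4 each, log2 fold change -0.08, edgeR FDR 0.936). Anks6, an ankyrin repeat partner of inversin, was at 14.6, 3.15, 2.33 and 6.28 CPM in Bbs8+/+ and at 3.03, 4.70, 2.75 and 4.20 CPM in Bbs8-/-. Its log2 fold change of -0.83 (FDR 0.462) was -0.12 without Bbs8+/+ replicate 1, the library with the highest level.

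**Figure D4:**
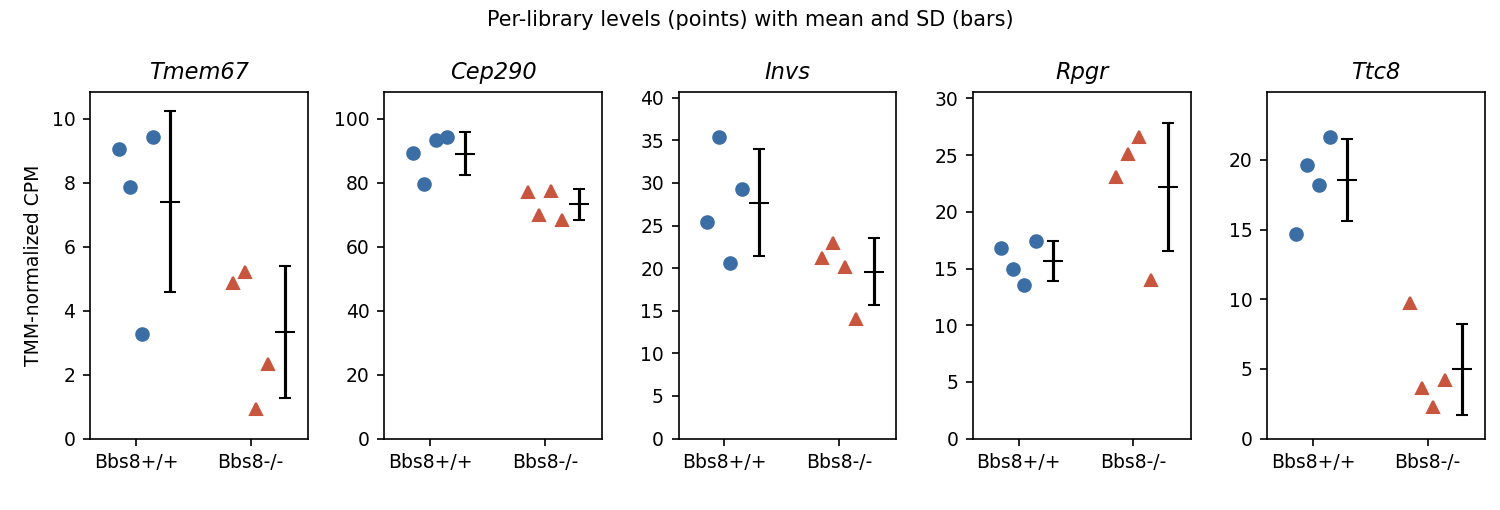
TMM-normalized CPM per library for the 4 members with an unadjusted p under 0.05 and for Ttc8, each on its own linear axis from 0, with circles for Bbs8+/+ and triangles for Bbs8-/-. Black bars give the mean and SD (n = 4). Cep290 and Ttc8 show no overlap between genotypes, whereas the genotypes overlap for the other 3: 1 Bbs8+/+ and 2 Bbs8-/- libraries of Tmem67 and of Invs, and 3 Bbs8+/+ and 1 Bbs8-/- libraries of Rpgr, lie within the range of the other genotype.

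Among the genes of the ciliary membrane and its lipid-modified cargo, 4 of 5 had lower point values and none passed the threshold. Arl3 encodes the small GTPase that releases lipid-modified proteins inside the cilium. Its level was 63.3, 62.5, 61.2 and 56.5 CPM in Bbs8+/+ and 60.6, 60.6, 63.7 and 67.2 CPM in Bbs8-/-, with an interval of the log2 fold change from -0.20 to 0.31. Arl13b, the membrane GTPase that activates Arl3, was at 19.8, 39.3, 24.3 and 17.5 CPM in Bbs8+/+ and at 23.7, 25.1, 18.8 and 22.9 CPM in Bbs8-/-. Its log2 fold change of -0.16 was 0.15 without Bbs8+/+ replicate 2, in which the level was highest. Pde6d, which carries prenylated proteins, Inpp5e, a phosphoinositide phosphatase brought into the cilium by Pde6d, and Tulp3, which carries receptors into the cilium, had log2 fold changes of -0.35, -0.47 and -0.45. For these 3 genes the intervals included 0, the FDR lay between 0.506 and 0.634, and the genotypes overlapped.

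In the Rab8 cascade, which brings vesicles to the ciliary base, both members had intervals within a 1.5-fold change. Rab8a, the GTPase itself, was at 90.5, 110, 118 and 94.6 CPM in Bbs8+/+ and at 107, 107, 124 and 110 CPM in Bbs8-/-. The ranges overlapped, and the log2 fold change was 0.12 (interval -0.08 to 0.32). Rab3ip encodes Rabin8, the exchange factor that activates Rab8 and that the BBSome binds. Its log2 fold change was 0.08 (interval -0.36 to 0.52) at 19.7 CPM.

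The 5 genes of the mother centriole and basal body showed little difference between genotypes. All 5 had point values between 0.04 and 0.18 on the log2 scale, and all 5 intervals lay within a 1.5-fold change. Ttbk2, the kinase that starts ciliogenesis, was at 37.9, 21.2, 29.4 and 35.3 CPM in Bbs8+/+ and at 35.8, 36.5, 40.4 and 26.6 CPM in Bbs8-/-. Cep164, the distal appendage protein that recruits it, was at 32.3, 24.0, 33.2 and 35.6 CPM in Bbs8+/+ and at 30.9, 41.2, 23.4 and 36.0 CPM in Bbs8-/-. Neither showed a separation of the genotypes (log2 fold changes 0.17 and 0.07). Ofd1, an X-linked gene of the centriole, was at 37.5, 30.3, 28.5 and 30.0 CPM in Bbs8+/+ and at 28.5, 32.9, 40.8 and 27.1 CPM in Bbs8-/-. Its interval ran from -0.31 to 0.39, beside the difference in sex-linked transcripts given above for Rpgr. Alms1, mutated in Alström syndrome, was at 27.1, 30.3, 17.7 and 19.2 CPM in Bbs8+/+ and at 20.01, 29.2, 30.3 and 26.6 CPM in Bbs8-/-, with overlapping ranges. The log2 fold changes of Alms1 and Sdccag8 were 0.18 and 0.08. The values of Cep164, Ofd1 and Sdccag8 fell below 0 when certain single libraries were left out.

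Other genes of the same structures were taken from a list of 58, of which 57 were tested. In this list 1 gene passed FDR 0.05, upward, and 10 (17.5%) had an unadjusted p under 0.05, against 2.24% and 13.0% of all tested genes. The gene was Unc119, which carries myristoylated proteins to the cilium and, like Pde6d, is unloaded by Arl3. Its level was 81.9, 81.0, 97.6 and 82.0 CPM in Bbs8+/+ and 115, 114, 98.6 and 117 CPM in Bbs8-/-. The genotypes did not overlap, and the 2 libraries numbered 3 lay next to each other at 97.6 and 98.6 CPM. The log2 fold change of 0.38 had a standard error of 0.105 (edgeR FDR 0.0262), and the call was lost in 6 of 17 alternatives. Myo5a, a myosin of pigment granules that also acts in vesicle traffic, had 340 ± 20.2 CPM against 293 ± 24.9 CPM in the knockout (SD, n = 4 each, log2 fold change -0.21, edgeR FDR 0.0831). Rab11fip3, an effector of Rab11, had 29.5 ± 9.24 and 18.7 ± 4.94 CPM (log2 fold change -0.64, FDR 0.0958). By structure, the median log2 fold change was 0.06 over 13 other transition zone genes, 0.03 over 21 other centriole and appendage genes, -0.002 over 13 other membrane and cargo genes and -0.04 over 10 other Rab and vesicle genes.

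Summed levels of cell type markers did not overlap between genotypes for 7 of 11 lists. Fewer cells of a type and less RNA per cell cannot be told apart in these bulk libraries. The summed level of 18 photoreceptor markers was 823 to 891 CPM in Bbs8+/+ and 746 to 835 CPM in Bbs8-/-, with 1 marker higher and 2 lower at FDR 0.05, and these sums overlapped, as did those of the endothelial, erythroid and multiciliated lists. Melanocyte markers summed to 14047 to 14746 CPM and 11645 to 12220 CPM, with 6 of 9 lower at FDR 0.05. Those lower were Dct, Tyrp1, Pmel, Mlana and Slc45a2, pigment genes that the RPE can also express, and Ednrb, an endothelin receptor of the melanocyte lineage (log2 fold change -0.43, edgeR FDR 1.97e-05). Sox10 (-0.05, FDR 0.878), Kit (-0.03, FDR 0.974) and Tyr (0.02, FDR 0.955) did not pass the edgeR test. The fibroblast and matrix sum was 35024 to 36764 CPM and 27583 to 28804 CPM, with 3 of 9 lower, all of them collagens (Col1a1, Col1a2 and Col3a1). Col1a1 and Col1a2 made up most of this sum, with means of 11698 and 15096 CPM in Bbs8+/+ and 8737 and 10294 CPM in Bbs8-/-. Point values were lower for 7 genes and higher for 2, Dcn (5884 and 6250 CPM, edgeR FDR 0.174) and Lum (129 and 140 CPM, FDR 0.631). Schwann cell and glia markers summed to 611 to 688 CPM and 467 to 523 CPM, with 3 of 7 tested genes lower. The lens sum was 60.2 to 80.3 CPM and 445 to 479 CPM, with 10 of 14 tested genes higher. The RPE sum was 18068 to 19168 CPM and 19493 to 19840 CPM, with 2 of 13 markers higher (Otx2 and Krt18) and Mitf lower. Most of this sum was Ttr, with means of 10937 CPM in Bbs8+/+ and 11657 CPM in Bbs8-/- (edgeR FDR 0.0686). Point values were higher for 9 markers and lower for 4, which were Mitf, Rpe65 (1998 and 1824 CPM, FDR 0.0843), Lrat and Rrh. Muscle markers summed to 1727 to 1900 CPM and 1916 to 2101 CPM, with 2 of 12 tested genes higher, and macrophage markers to 407 to 456 CPM and 461 to 536 CPM, with 1 of 8 higher. The part of these differences in the values of Cep290, Invs, Tmem67, Rpgr, Unc119 and Myo5a was not tested. Among markers of motile multiciliated cells, Foxj1 was at no more than 1 count in any library and Sntn was at 0 in all 8. Their summed level was 17.8 to 22.8 CPM and 14.5 to 27.3 CPM, most of it Ccdc39.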

How the data were processed

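The authors trimmed the reads with BBDuk, aligned them with STAR to mm10 and counted them per gene with htseq-count. The deposited values are raw counts of uniquely aligned reads, one file per library, and the strand setting was not given in the sources used here. Reads outside annotated genes (42.1% to 44.4%) and ambiguous reads (0.309% to 0.323%) were left out. Symbols and positions came from GENCODE M21 on the same assembly (42 of 31053 identifiers had no entry).

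Counts were TMM-normalized and compared between genotypes, the only factor, by edgeR's two-sided quasi-likelihood test (edgeR 4.0.16, R 4.3.3). P-values were adjusted after Benjamini-Hochberg over the 13813 genes that reached 1 CPM in 4 or more libraries. The standard error is the log2 fold change divided by the square root of F, and the 95% interval uses the t quantile of the fit. CPM are TMM-normalized, and intervals and floors do not account for duplicate reads. Fits were checked on simulated counts. Each animal was counted as a biological replicate in the study's methods, but Xist and Y-linked transcripts both occurred in all 8 libraries, so 1 animal per library was not shown by the data.

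Members and lists were chosen with earlier results of these data known. Per-library values are given for members with an unadjusted p under 0.05, the 10 most abundant and the X-linked ones, and other ciliary genes are named if past FDR 0.05 or with an unadjusted p under 0.01. Values of Anks6, Arl13b, Tmem231, Tmem138 and Tmem216 in single libraries were added after they were seen. Same-numbered libraries had deviations correlated from -0.056 to 0.020 over 6626 genes. Alternatives were RLE factors, total counts, filterByExpr, no filter, DESeq2 1.42.0, a likelihood ratio test, the replicate number as a block, removal of Gm42418 and mitochondrial genes, thinning, and leaving out each library.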

Additional observations from a re-analysis of the deposited data

Results flagged for a closer look

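A single library stood apart from its group in 4 of 76 tests of a gene within a genotype, and chance alone gives about 3.8. Mks1 was 11.21 CPM in Bbs8+/+ replicate 3, against 7.679 to 7.864 CPM in the others. Iqcb1 was 14.22 CPM in Bbs8-/- replicate 3, against 9.703 to 9.92 CPM. For Unc119 both libraries numbered 3 stood apart, at 97.6 CPM in Bbs8+/+ (others 81 to 82.02 CPM) and at 98.59 CPM in Bbs8-/- (others 114.3 to 117.2 CPM).

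Outside the gene counts, all 4 Bbs8-/- libraries had a larger share of uniquely aligned reads beyond annotated genes, 44.27% ± 0.125 against 42.6% ± 0.542 (SD, n = 4 per genotype, exact permutation p = 0.0286, two-sided, the smallest the design allows, and 0.0429 adjusted over 15 library measures).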

How the results depend on the processing

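No member passed FDR 0.05 in any of the 17 alternatives, and 18 of 33 members kept their direction in all of them. The median log2 fold change of the members, which was -0.07, lay between -0.13 and 0.07, with -0.096 to 0.067 when one library was left out. With filterByExpr only 29 members were tested. The number of genes past the threshold ranged from 114 to 172 upward and 101 to 150 downward with one library left out. The replicate number as a block gave 134 and 129 genes, no member, and a median of -0.053 over the members, and it left the calls of Ttc8 (-1.97) and Unc119 (0.38) in place. The numbers did not pair the libraries.

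Where a member changed sign, its FDR was at least 0.701. Tctn1 was 0.025 with the block and 0.26 after thinning, Ahi1 was -0.0042 and Iqcb1 -0.045 after thinning. With one library left out, the ranges were -0.31 to 0.15 for Arl13b, -0.39 to 0.084 for B9d1, -0.15 to 0.0036 for Cc2d2a, -0.056 to 0.21 for Cep164, -0.11 to 0.16 for Iqcb1, -0.29 to 0.058 for Mks1, -0.93 to 0.035 for Nphp4, -0.096 to 0.13 for Ofd1, -0.0030 to 0.20 for Rab3ip, -0.35 to 0.0085 for Rpgrip1l, -0.025 to 0.17 for Sdccag8, -0.18 to 0.15 for Tctn1, -0.13 to 0.46 for Tmem216 and -0.45 to 0.49 for Tmem231. Among the other ciliary genes 0 to 2 passed with one library left out. Unc119 ranged from 0.35 to 0.44 (FDR 0.0102 to 0.112), Myo5a from -0.26 to -0.17 (FDR 0.0332 to 0.343) and Rab11fip3 from -0.82 to -0.45 (FDR 0.0206 to 0.375). Ttc8 ranged from -2.44 to -1.70 and stayed past the threshold. The cause was not tested.

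Depth limits the less abundant members most: 6 had 5 or fewer counts in at least 1 library.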
